A study of Homo sapiens with 9 samples.

Results

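The S100 calcium-binding protein genes described here are S100A2, S100A4, S100A6, S100A7, S100A8, S100A9, S100A10, S100A11, S100A14 and S100A16. They were taken by gene symbol from the deposited expression table, where 10 of 10 were found among 16366 genes. RNA had been sequenced from Cal-27, an established human line of squamous carcinoma of the tongue whose genotype is labelled WT. Of the 9 libraries, 3 came from cells given exosomes of cancer-associated fibroblasts (CAF exosomes) for 48 h. Another 3 came from cells given hOMF exosomes for 48 h, a name that the labels do not spell out. The remaining 3 came from control cells, and the labels do not say what these received in place of exosomes. Exosomes are vesicles of cell membrane that carry protein and RNA out of a cell. The labels speak of replicate samples without naming separate cultures, so the p-values below reflect only how far these samples differ among themselves, and that spread may be technical.

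S100 proteins bind calcium through EF-hand loops and mostly work as dimers that dock onto other proteins. S100A8 and S100A9 pair as calprotectin, and together with S100A7 (psoriasin) they are known as antimicrobial and inflammatory products of stratified epithelium, scarce in resting epidermis and abundant in psoriasis and wounds. S100A10 and S100A11 are partners of annexins at membranes, S100A6 binds the calcyclin-binding protein CACYBP, S100A4 binds non-muscle myosin, and S100A2 is a largely nuclear protein of basal keratinocytes. S100A14 and S100A16 are broadly epithelial members of the family.

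All 10 genes lie on chromosome 1 between positions 151982915 and 153616986 of GRCh38 (GENCODE 29), a span of 1634 kb, and 9 of them are on the minus strand. S100A9 (153357854 to 153361027) is the only one of the 10 on the plus strand. S100A8 occupies 153390032 to 153391188, S100A7 153457744 to 153460701, S100A16 153606886 to 153613145 and S100A14 153614255 to 153616986. S100A14 and S100A16 are neighbours, separated by 1109 bases. Of the 10, S100A6 alone has exons that overlap those of another annotated gene, BX470102.1 on the opposite strand. No source used here says whether reads were counted by strand, so reads of that pair cannot be told apart.

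The letters just before the start site are shown for the 4 genes of the set with TATAAA close to a start. S100A14, the gene that moved opposite to them, is shown as well. TATAAA was the only TATA box motif searched. Each line holds the 100 bases before a RefSeq start (GRCh38.p14) on the strand of the gene, and capitals mark TATAAA. The stretches are chr1:153460652-153460751 (minus strand) for S100A7, chr1:153391074-153391173 (minus strand) for S100A8, chr1:153357754-153357853 (plus strand) for S100A9, chr1:153545807-153545906 (minus strand) for S100A4 and chr1:153616326-153616425 (minus strand) for S100A14.
S100A7: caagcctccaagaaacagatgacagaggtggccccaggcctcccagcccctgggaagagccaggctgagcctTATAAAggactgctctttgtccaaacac
S100A8: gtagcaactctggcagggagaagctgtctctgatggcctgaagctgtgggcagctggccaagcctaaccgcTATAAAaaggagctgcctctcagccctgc
S100A9: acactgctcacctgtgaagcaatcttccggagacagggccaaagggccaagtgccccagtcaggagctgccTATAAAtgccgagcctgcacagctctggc
S100A4: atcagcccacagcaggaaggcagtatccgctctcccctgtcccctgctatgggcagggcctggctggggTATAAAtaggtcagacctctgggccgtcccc
S100A14: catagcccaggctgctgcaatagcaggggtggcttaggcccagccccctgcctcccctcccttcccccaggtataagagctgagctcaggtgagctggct
TATAAA began 28 bases before the start of S100A7, 29 before that of S100A8, 29 before that of S100A9 and 31 before that of S100A4. S100A8 has 3 RefSeq starts, and the line above is for the start at 153391073. The same letters lie 126 bases before another of its starts and are not in the window of the remaining one. Of 35116 windows of 300 bases over all RefSeq genes (250 before and 50 after a start), 2.36% held TATAAA on the strand of the gene between 15 and 40 bases before the start, and 11.5% held it anywhere on either strand. By gene, 14% of all RefSeq genes had a window with it, and so did 4 of the 10 S100 genes. The windows of S100A2, S100A6, S100A10, S100A11, S100A14 and S100A16 held no TATAAA on either strand. Close variants were not counted, such as tataag in the stretch printed for S100A14 and before the start of S100A6. The AP-1 motif TGANTCA, searched on both strands, was in a window of S100A2 alone among the 10 genes and in windows of 9.37% of all RefSeq genes. The letters TTGNNNNAA, searched for C/EBP on both strands, were in windows of S100A7 and S100A16 and in windows of 36.5% of all genes. This string does not read the same on both strands, and no other spacing of TTG and AA was searched. It therefore cannot tell which of the S100 genes have or lack a C/EBP site. The NF-kB motif (GGG and CC around 5 free bases), on both strands, was in windows of 9 of the 10 genes, with none for S100A9, and in windows of 61.7% of all genes. By window, it was in 10 of the 14 windows of the S100 genes and in 58.7% of all windows. These matches describe letters and do not show that a factor binds there.

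Libraries held 11185672 to 12779101 expected counts each. All 10 S100 genes passed the filter on low counts, with at least 139 counts in every library, and their counts were whole to within 0.001 in 9 of 9 libraries. The 10 squamous markers listed for the labelled cell type were all in the table, at summed levels of 6230 to 6314 TPM (relative transcript abundance, scaled for length) with CAF exosomes, 5342 to 6019 TPM with hOMF exosomes and 4167 to 5374 TPM in controls. Of these, 4 were called higher with CAF exosomes and 2 with hOMF exosomes, among them the basal keratins KRT5 and KRT14. The hOMF call of KRT14 was lost without control replicate 3 (log2 fold change 0.35, edgeR adjusted p = 0.167). TP63, SFN, DSG3, DSP, EPCAM and CDH1 were called in neither comparison. The largest part of the summed level was KRT17, at 3549 to 3757 TPM with CAF exosomes, 2880 to 3580 TPM with hOMF exosomes and 2154 to 3144 TPM in controls. Of 14 fibroblast markers in the table, 8 were tested and COL6A1, COL6A2, LUM and ACTA2 were called higher with both exosomes. The CAF call of COL6A2 did not hold without control replicate 3 (0.59, edgeR adjusted p = 0.113), and LUM had 15 to 38 counts in a library. COL1A1, COL1A2 and PDGFRB were above 0 in both comparisons but not called. FN1, also not called, was at -0.16 with CAF exosomes and -0.09 with hOMF exosomes. COL3A1, DCN, FAP, THY1 and POSTN had at most 3 counts in any library. Over all genes tested, 9.51% were called higher with CAF exosomes and 11.8% with hOMF exosomes. Of 3 melanocyte and neural markers in the table, 2 were tested and 0 were called. The part of these markers in the S100 results was not tested. In a bulk sample, fewer cells of a type and less RNA per cell cannot be told apart.

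The library labelled control replicate 3 stood apart, and this touches the S100 genes because S100A8, S100A9, S100A4 and S100A6 are also expressed by myeloid cells. It held 25.7 TPM of AIF1, 7.22 TPM of TYROBP and 2.71 TPM of CSF3R, genes of leukocytes that were listed at 0 in the other 8 libraries. PTPRC was at 2.44 TPM there and at no more than 0.03 TPM elsewhere, and VIM was at 34.4 TPM there and at no more than 0.56 TPM elsewhere. The summed level of the myeloid markers, without S100A12, was 85.5 TPM in this library and 40.2 to 51.8 TPM in the others. Of 12 myeloid markers present, 5 were tested, and 1, ITGAM, was called, lower with hOMF exosomes. Genes with at least 20 counts in this library and 0 in the other 8 numbered 36 and took 0.0151% of its counts, and each other library had 0 or 1 such gene. Values of the S100 genes and of the other genes named below are therefore also given without this library where leaving it out changed a call against control. S100A7, S100A8, S100A9 and S100A14 kept their direction and call without it.

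With CAF exosomes the inflammatory S100 genes were lower than in controls and S100A14 was higher. By edgeR's quasi-likelihood test on all 12470 genes kept, at a Benjamini-Hochberg adjusted p under 0.05, 5 of the 10 genes fell (S100A7, S100A8, S100A9, S100A4 and S100A2), 1 rose (S100A14) and 4 were not called. Of all genes tested, 18.2% were called in this comparison, 9.51% higher and 8.64% lower. The groups did not overlap in CPM (counts scaled to a common library size with TMM factors) for 8 of the 10, of which 7 were lower and 1 higher, against 36.2% of all genes (18% higher and 18.2% lower). The median log2 fold change of the 10 was -0.23, beside -0.01 over all genes. Without control replicate 3, 7 of the 10 were called, 6 lower and 1 higher, beside 11.5% of all genes. Leaving out each library in turn gave 4 to 7 of the 10, with 4 without CAF replicate 1, CAF replicate 3 or control replicate 1.

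With hOMF exosomes 7 of the 10 genes fell against the same controls, namely the 5 above with S100A11 and S100A16, S100A14 rose, and S100A6 and S100A10 were not called. Of all genes tested, 23.2% were called, 11.8% higher and 11.4% lower. The groups did not overlap in CPM for 8 of the 10, 7 lower and 1 higher, against 39.5% of all genes (20.2% higher and 19.3% lower). The median log2 fold change of the 10 was -0.41, beside 0.00 over all genes. Without control replicate 3, 9 of the 10 were called, 8 lower and 1 higher, beside 16% of all genes. Leaving out each library in turn gave 6 to 9 of the 10, with 6 without hOMF replicate 2. Both comparisons use the same 3 control libraries, so they are not independent of each other.

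**Figure D1:**
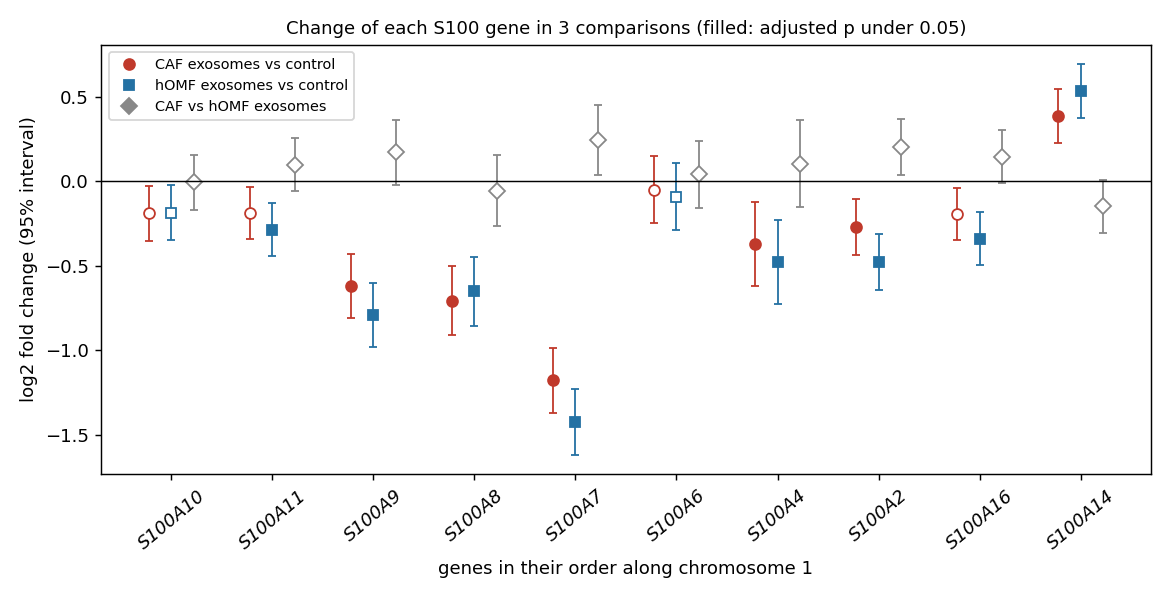
Log2 fold change of each S100 gene (vertical axis, bars are 95% intervals) in 3 comparisons, with genes in their order along chromosome 1 and filled symbols for an edgeR adjusted p under 0.05. S100A7 lies lowest at -1.18 with CAF exosomes and -1.42 with hOMF exosomes against control, S100A14 lies above 0 in both, and no CAF against hOMF symbol is filled.

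S100A7, which encodes psoriasin, changed most of the 10. It was at 30.5, 28.1 and 29.8 CPM with CAF exosomes, at 25.9, 25.5 and 23.2 CPM with hOMF exosomes and at 58.0, 72.1 and 69.7 CPM in controls. Every exosome library was below every control library, and the lowest control was replicate 1. The gene was 2.26-fold lower with CAF exosomes (log2 fold change -1.18, SE 0.09, edgeR adjusted p = 2.92e-06) and 2.68-fold lower with hOMF exosomes (-1.42, SE 0.09, edgeR adjusted p = 3.05e-07). Counts behind these values were 292 to 874 per library. S100A7A, a near-identical copy of S100A7 in the same cluster, could exchange reads with it when counts are estimated, and had 10 to 38 counts in a library.

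S100A8 and S100A9, the subunits of calprotectin, were lower with both exosomes as well. S100A8 was at 26.3, 30.2 and 32.1 CPM with CAF exosomes, at 32.3, 33.3 and 26.8 CPM with hOMF exosomes and at 45.8, 49.2 and 49.8 CPM in controls. The exosome groups overlapped each other and neither overlapped the controls. S100A8 fell by 0.71 on the log2 scale with CAF exosomes (SE 0.10, edgeR adjusted p = 0.000218) and by 0.65 with hOMF exosomes (SE 0.10, edgeR adjusted p = 0.000235).

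S100A9 was at 543, 609.8 and 623 CPM with CAF exosomes, at 557, 575 and 444 CPM with hOMF exosomes and at 879, 914 and 935 CPM in controls. Again the 6 exosome libraries lay below the 3 controls, with hOMF replicate 3 the lowest of all. S100A9 fell by 0.62 on the log2 scale with CAF exosomes (SE 0.09, edgeR adjusted p = 0.000354) and by 0.79 with hOMF exosomes (SE 0.09, edgeR adjusted p = 3.41e-05). Control replicate 3, which carried the leukocyte transcripts, had the highest S100A8 and S100A9 values, and the values without it are given next. Without that library S100A8 fell by 0.68 with CAF exosomes (edgeR adjusted p = 0.0011) and by 0.63 with hOMF exosomes (edgeR adjusted p = 0.00118). S100A9 fell by 0.60 with CAF exosomes (edgeR adjusted p = 0.00144) and by 0.77 with hOMF exosomes (edgeR adjusted p = 0.000127).

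**Figure D2:**
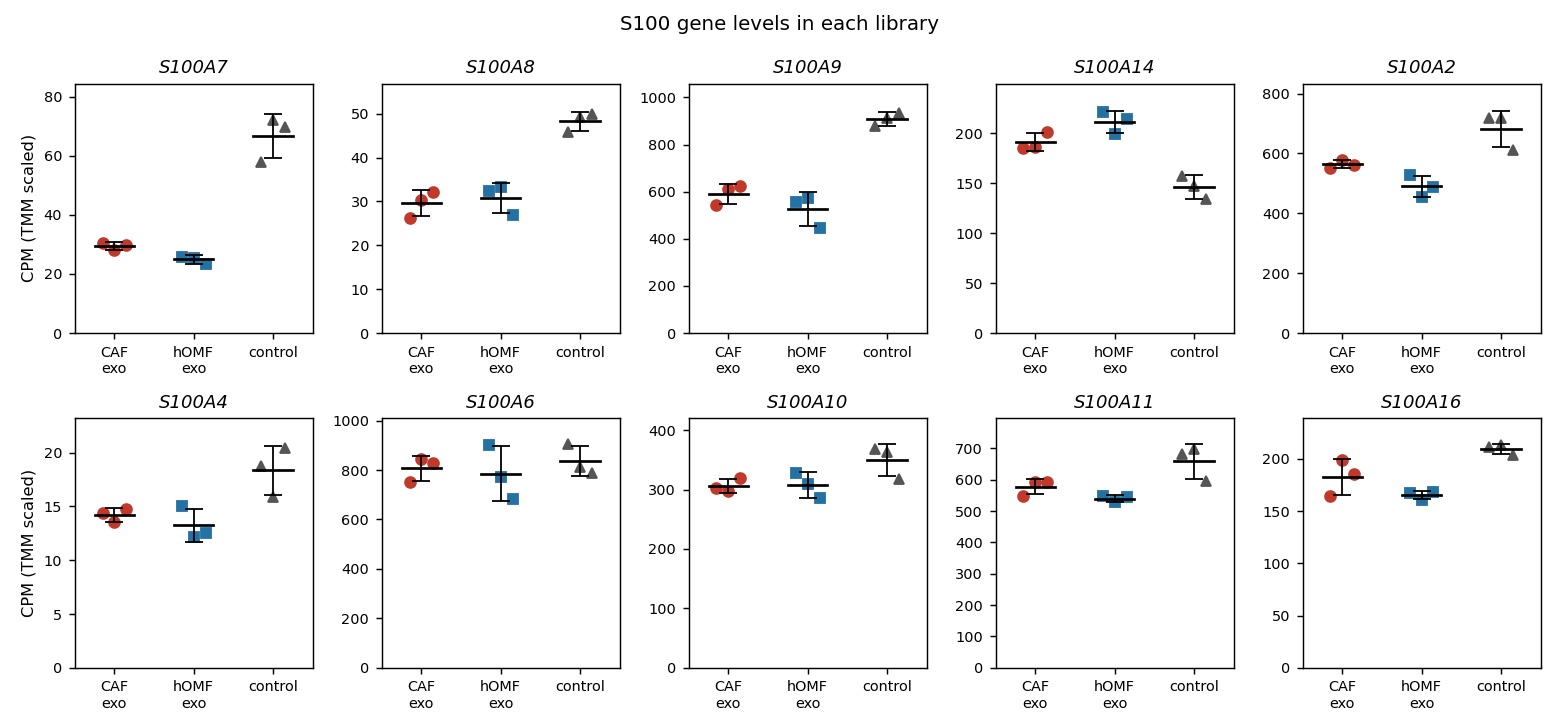
TMM-scaled CPM of the 10 S100 genes in each of the 9 libraries (points), with the mean and SD of the 3 libraries of a group (bars), for CAF exosomes, hOMF exosomes and control. S100A7 is at 23.2 to 30.5 CPM in the 6 exosome libraries and at 58.0 to 72.1 CPM in the controls, whereas S100A14 is at 186 to 221 CPM in the exosome libraries and at 134 to 158 CPM in the controls.

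S100A14 was the only one of the 10 genes called higher. It was at 186, 186 and 201 CPM with CAF exosomes, at 221, 199.6 and 214 CPM with hOMF exosomes and at 158, 147 and 134 CPM in controls. All 6 exosome libraries lay above all 3 controls. The level was 1.31-fold higher with CAF exosomes (log2 fold change 0.39, SE 0.08, edgeR adjusted p = 0.00302) and 1.45-fold higher with hOMF exosomes (0.53, SE 0.08, edgeR adjusted p = 0.00017).

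Its neighbour S100A16 lay the other way. S100A16 was at 165, 199 and 185 CPM with CAF exosomes, at 168, 161 and 168 CPM with hOMF exosomes and at 211, 213 and 204 CPM in controls. The controls did not overlap either exosome group, though CAF replicate 2 came close to the lowest control. S100A16 fell by 0.34 on the log2 scale with hOMF exosomes (SE 0.07, edgeR adjusted p = 0.0042). With CAF exosomes its log2 fold change was -0.19 (SE 0.07, edgeR adjusted p = 0.0782), which did not pass. It passed without CAF replicate 2 (-0.25, edgeR adjusted p = 0.034) and under the 4 fits with a length offset (edgeR adjusted p between 0.0181 and 0.0363), and it was -0.12 without CAF replicate 1 (edgeR adjusted p = 0.279).

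S100A2, a gene of basal keratinocytes, was at 552, 578 and 563 CPM with CAF exosomes, at 527, 455 and 488 CPM with hOMF exosomes and at 717, 717 and 611 CPM in controls. Control replicate 3 was the lowest control and still above every exosome library. S100A2 fell by 0.27 on the log2 scale with CAF exosomes (SE 0.08, edgeR adjusted p = 0.0254) and by 0.48 with hOMF exosomes (SE 0.08, edgeR adjusted p = 0.000584). The CAF call was lost without CAF replicate 1 or 3 or control replicate 1 or 2, where adjusted p by edgeR was between 0.0688 and 0.106.

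S100A4, known for its link to cell motility and metastasis, was the least abundant of the 10. It was at 14.4, 13.5 and 14.8 CPM with CAF exosomes, at 15.0, 12.2 and 12.5 CPM with hOMF exosomes and at 18.7, 15.9 and 20.4 CPM in controls. The exosome groups overlapped each other and neither overlapped the controls, though hOMF replicate 1 and control replicate 2 were close. S100A4 fell by 0.37 on the log2 scale with CAF exosomes (SE 0.12, edgeR adjusted p = 0.0379) and by 0.48 with hOMF exosomes (SE 0.12, edgeR adjusted p = 0.00893). The highest value was that of control replicate 3, and without it the CAF call was lost (log2 fold change -0.28, edgeR adjusted p = 0.159) while the hOMF call held (-0.39, edgeR adjusted p = 0.0474). The CAF call was also lost without control replicate 1 or any single CAF library. The hOMF call was lost without hOMF replicate 2 (-0.42, edgeR adjusted p = 0.0501).

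Among the annexin partners, S100A11 was at 549.5, 594 and 592 CPM with CAF exosomes, at 548, 528 and 544 CPM with hOMF exosomes and at 683, 698 and 595 CPM in controls. Control replicate 3 was only just above the highest CAF library. S100A11 fell by 0.29 on the log2 scale with hOMF exosomes (SE 0.07, edgeR adjusted p = 0.0109), a call lost without hOMF replicate 2 (edgeR adjusted p = 0.058) or control replicate 2 (edgeR adjusted p = 0.0602). With CAF exosomes its log2 fold change was -0.19 (SE 0.07, edgeR adjusted p = 0.0871), and without control replicate 3 it was -0.26 (edgeR adjusted p = 0.0322).

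S100A10 was at 303, 297 and 320.0 CPM with CAF exosomes, at 329, 309 and 286 CPM with hOMF exosomes and at 368, 362 and 318 CPM in controls. Control replicate 3 fell among the exosome libraries and the groups overlapped. The log2 fold change was -0.19 with CAF exosomes (SE 0.08, edgeR adjusted p = 0.0986) and -0.18 with hOMF exosomes (SE 0.08, edgeR adjusted p = 0.092), neither of which passed. Without control replicate 3 both were -0.25 and passed (edgeR adjusted p = 0.0475 with CAF exosomes and 0.0409 with hOMF exosomes).

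S100A6, the calcyclin gene, showed no difference beyond its spread. It was at 750.4, 845 and 829 CPM with CAF exosomes, at 902, 773 and 681 CPM with hOMF exosomes and at 906, 814 and 788 CPM in controls. All 3 groups overlapped, and the hOMF libraries alone spanned nearly the whole range. Its log2 fold change was -0.05 with CAF exosomes (95% interval -0.25 to 0.15, edgeR adjusted p = 0.753) and -0.09 with hOMF exosomes (-0.29 to 0.11, edgeR adjusted p = 0.523).

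The 4 genes with TATAAA close to a start (S100A7, S100A8, S100A9 and S100A4, whose letters are printed above) were called lower in both comparisons with control. Of the 6 without it, S100A2 was called lower and S100A14 higher in both, S100A11 and S100A16 were called lower with hOMF exosomes while their CAF values missed the threshold, and S100A6 and S100A10 were called in neither. The CAF call of S100A4 was lost under 9 alternatives. Outside the set, S100A13 and S100A7A also have TATAAA close to a start. S100A13 was called in neither comparison. S100A7A was called lower with CAF exosomes only, and that call was lost without control replicate 3. With 10 genes, this is a description of the set and no test was made.

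CAF exosomes and hOMF exosomes were then set against each other. None of the 10 genes was called, with edgeR adjusted p between 0.55 and 0.992, and 0.016% of all genes tested were called (0.00802% higher and 0.00802% lower). At an unadjusted p under 0.05 there were 2 of the 10, S100A2 and S100A7, and limma and DESeq2, which gave no adjusted p for S100A4, also called 0. The groups did not overlap for 3 of the 10 (S100A2, S100A7 and S100A11), all higher with CAF exosomes, against 13.7% of all genes, 7.15% higher and 6.59% lower. The estimate for S100A7 was 0.25 on the log2 scale (95% interval 0.04 to 0.45) and that for S100A2 was 0.20 (0.04 to 0.37). S100A9 was at 0.17 (-0.02 to 0.36), S100A16 at 0.15 (-0.01 to 0.30), S100A14 at -0.15 (-0.31 to 0.01) and S100A8 at -0.06 (-0.27 to 0.16). S100A10 was at 0.00 (-0.17 to 0.16), S100A6 at 0.04 (-0.16 to 0.24), S100A11 at 0.10 (-0.06 to 0.25) and S100A4 at 0.11 (-0.15 to 0.36). These intervals bound the difference between the exosome groups and do not show that the groups act alike.

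Levels were compared between genes in TPM, which is scaled for transcript length. The effective lengths of these short transcripts, 142 to 906 bases, depend on the estimated fragment length, so the order of close neighbours is less firm than a comparison of 1 gene between groups. With CAF exosomes the order was S100A6 (7212 ± 184 TPM, SD, n = 3), S100A11 (2961 ± 29.7 TPM), S100A9 (2927 ± 121 TPM), S100A2 (1211 ± 17.4 TPM), S100A10 (1147 ± 51.8 TPM), S100A14 (364 ± 14.8 TPM), S100A8 (306 ± 21.6 TPM), S100A16 (302 ± 20.9 TPM), S100A7 (274 ± 21.3 TPM) and S100A4 (87.5 ± 5.40 TPM). In that group S100A11 and S100A9 overlapped over the 3 libraries, and so did S100A8 with S100A16 and S100A16 with S100A7. With hOMF exosomes it was S100A6 (7224 ± 726 TPM), S100A11 (2837 ± 105 TPM), S100A9 (2664 ± 316 TPM), S100A10 (1175 ± 40.2 TPM), S100A2 (1072 ± 56.9 TPM), S100A14 (411 ± 19.9 TPM), S100A8 (333 ± 32.7 TPM), S100A16 (278 ± 11.99 TPM), S100A7 (239 ± 9.83 TPM) and S100A4 (83.5 ± 6.38 TPM), and of these neighbours only S100A11 and S100A9 overlapped. In controls it was S100A6 (7242 ± 606 TPM), S100A9 (4341 ± 120 TPM), S100A11 (3252 ± 271 TPM), S100A2 (1401 ± 121 TPM), S100A10 (1259 ± 97.4 TPM), S100A7 (599 ± 63.1 TPM), S100A8 (491 ± 15.0 TPM), S100A16 (331 ± 5.36 TPM), S100A14 (268 ± 22.1 TPM) and S100A4 (109 ± 13.9 TPM), and of these neighbours only S100A2 and S100A10 overlapped.

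The order differed between the groups. S100A7 was above S100A8 in 1 of 3 CAF libraries, 0 of 3 hOMF libraries and 3 of 3 controls. S100A16 was above S100A14 in 0 of 3 CAF libraries, 0 of 3 hOMF libraries and 3 of 3 controls. S100A9 was the second most abundant of the set in every control, while S100A11 exceeded it in 2 of 3 CAF libraries and 2 of 3 hOMF libraries. S100A2 exceeded S100A10 in 3 of 3 CAF libraries, 0 of 3 hOMF libraries and 3 of 3 controls.

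**Figure D3:**
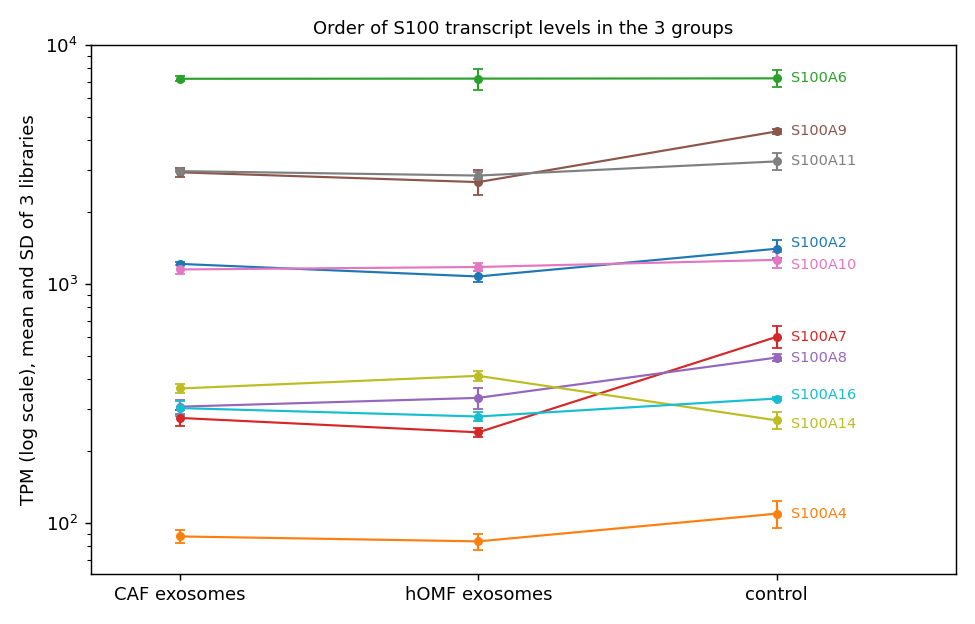
Mean TPM of the 10 S100 genes (log scale, bars are the SD of 3 libraries) with CAF exosomes, hOMF exosomes and in control, with a line joining the means of each gene. S100A7 has rank 9 with either exosome and rank 6 in controls, and S100A14 has rank 6 with either exosome and rank 9 in controls.

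The 10 genes together made up a sizeable share of the transcripts. Their sum was 1.68% ± 0.030 of all TPM with CAF exosomes, 1.63% ± 0.088 with hOMF exosomes and 1.93% ± 0.085 in controls (SD, n = 3 each). S100A6 was the largest share of that sum, at 42.9% with CAF exosomes, 44.2% with hOMF exosomes and 37.5% in controls. S100A9 made up 17.4% with CAF exosomes, 16.3% with hOMF exosomes and 22.6% in controls. S100A7 made up 1.63% with CAF exosomes, 1.46% with hOMF exosomes and 3.12% in controls, while S100A14 made up 2.17%, 2.53% and 1.39% in the same groups.

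Since S100A8 and S100A9 act as a pair, their ratio was taken within each library, where scaling between libraries plays no part. The ratio of S100A9 to S100A8 in TPM was 9.82, 9.68 and 9.26 with CAF exosomes, 8.13, 8.09 and 7.76 with hOMF exosomes and 8.92, 8.72 and 8.90 in controls. The 3 groups did not overlap, with the CAF libraries highest and the hOMF libraries lowest. The log2 ratio of S100A8 over S100A9 differed by -0.12 for CAF exosomes minus control, by 0.15 for hOMF exosomes minus control and by -0.26 for CAF minus hOMF exosomes. Each had an exact permutation p of 0.1, two-sided, the smallest that 3 against 3 allows, and 0.15 after adjustment over 6 ratio comparisons, so none could pass the threshold.

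S100A10 forms a tetramer with annexin A2, and the ratio of ANXA2 to S100A10 in TPM was 1.81, 1.85 and 1.83 with CAF exosomes, 1.54, 1.54 and 1.88 with hOMF exosomes and 1.75, 1.64 and 1.78 in controls. The hOMF libraries spanned the other groups. The log2 ratio of S100A10 over ANXA2 differed by -0.09 for CAF exosomes minus control (exact permutation p = 0.1, two-sided), by 0.06 for hOMF exosomes minus control (exact permutation p = 0.6) and by -0.15 for CAF minus hOMF exosomes (exact permutation p = 0.4). ANXA2 itself fell by 0.26 on the log2 scale with hOMF exosomes (SE 0.07, edgeR adjusted p = 0.0183), and its log2 fold change with CAF exosomes was -0.11 (edgeR adjusted p = 0.292).

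**Figure D4:**
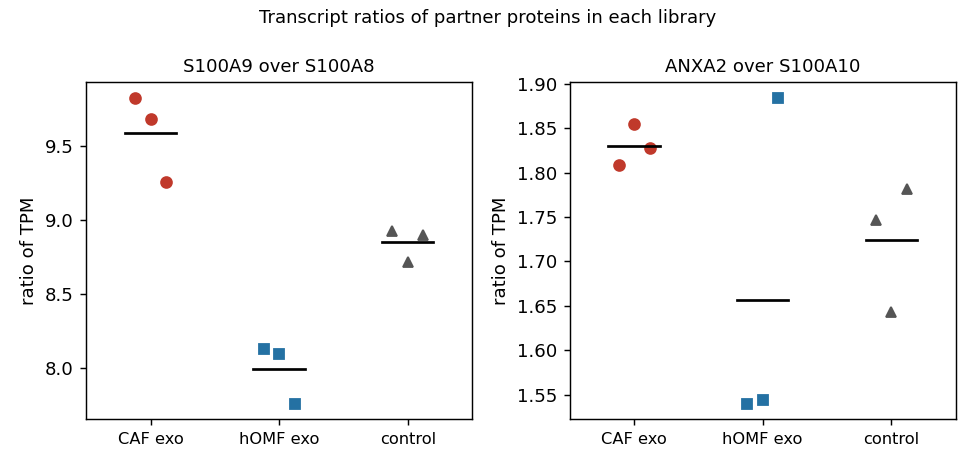
Ratio of TPM of S100A9 over S100A8 (left) and of ANXA2 over S100A10 (right) in each library, with group means as lines; the vertical axes do not start at 0. The S100A9 over S100A8 ratio is 9.26 to 9.82 with CAF exosomes, 7.76 to 8.13 with hOMF exosomes and 8.72 to 8.92 in controls.

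The rest of the S100 family was mostly below the filter. Besides the 10 genes the table holds 8 S100 symbols, and 4 of them passed the filter on low counts. S100A7A, the close copy of S100A7, fell by 1.08 on the log2 scale with CAF exosomes (SE 0.33, edgeR adjusted p = 0.0345) and was at -0.72 with hOMF exosomes (edgeR adjusted p = 0.113). The CAF call was lost without control replicate 3 (-1.03, edgeR adjusted p = 0.082). Reads of S100A7 could have been assigned to it or the reverse, so the value of S100A7A is uncertain. Counts of S100A7A, like those of S100A7, were whole to within 0.001 in 9 of 9 libraries. An exchange of reads was not tested. S100A13 was at -0.19 with CAF exosomes (edgeR adjusted p = 0.146) and -0.24 with hOMF exosomes (edgeR adjusted p = 0.0593), S100A3 at 0.22 (edgeR adjusted p = 0.225) and -0.02 (edgeR adjusted p = 0.918), and S100A12 at -0.78 (edgeR adjusted p = 0.194) and -0.63 (edgeR adjusted p = 0.271). S100A13 overlaps S100A1 on the opposite strand. Of 7 listed fused S100 genes of the epidermis, such as the filaggrin gene, 3 were in the table and 0 passed the filter.

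Of 17 receptors and binding partners of S100 proteins tested, 1 was called higher and 4 lower with CAF exosomes, 29.4% of the list beside 18.2% of all genes, at a median log2 fold change of -0.11 beside -0.01 over all genes. With hOMF exosomes 1 was called higher and 3 lower, and this 23.5% of the list is close to the 23.2% of all genes, at a median of -0.13 beside 0.00. Without control replicate 3, 1 of the 17 was called higher and 2 lower in either comparison. Over all genes, that fit called 11.5% with CAF exosomes and 16% with hOMF exosomes. The list was chosen with earlier results of these data known, so these shares are descriptive. AGER, which encodes the receptor RAGE for several S100 proteins, was at 5.26, 6.55 and 5.76 CPM with CAF exosomes, at 7.03, 8.39 and 6.04 CPM with hOMF exosomes and at 3.64, 3.52 and 3.99 CPM in controls. Both exosome groups lay above the controls at this low level. AGER was 1.57-fold higher with CAF exosomes (log2 fold change 0.65, SE 0.18, edgeR adjusted p = 0.0203) and 1.91-fold higher with hOMF exosomes (0.94, SE 0.18, edgeR adjusted p = 0.00149).

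TLR4, the receptor through which calprotectin is known to signal, is also a gene of myeloid cells. It was at 3.92, 4.34 and 4.76 CPM with CAF exosomes, at 4.34, 4.37 and 4.66 CPM with hOMF exosomes and at 5.64, 5.96 and 7.02 CPM in controls. Both exosome groups lay below the controls, and the highest value was that of control replicate 3, the library with the leukocyte transcripts. TLR4 fell by 0.52 on the log2 scale with CAF exosomes (SE 0.17, edgeR adjusted p = 0.0402) and by 0.48 with hOMF exosomes (SE 0.16, edgeR adjusted p = 0.0453). Both calls were lost without control replicate 3, at -0.42 with CAF exosomes (edgeR adjusted p = 0.139) and -0.38 with hOMF exosomes (edgeR adjusted p = 0.152). ANXA5, a membrane-binding annexin, fell by 0.28 with CAF exosomes (edgeR adjusted p = 0.0136) and by 0.27 with hOMF exosomes (edgeR adjusted p = 0.0138). MYH9, the non-muscle myosin heavy chain that S100A4 binds, fell by 0.32 with CAF exosomes (edgeR adjusted p = 0.00747), and CACYBP, the partner of S100A6, fell by 0.22 (edgeR adjusted p = 0.047), a call lost without control replicate 3 (-0.18, edgeR adjusted p = 0.16). With hOMF exosomes MYH9 was at -0.16 (edgeR adjusted p = 0.124) and CACYBP at -0.13 (edgeR adjusted p = 0.21). Between CAF and hOMF exosomes 0 of the 17 were called, and SUGT1, BSG, MCAM and MYH9 had unadjusted p under 0.05.

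Genes of inflamed epithelium are a list often read beside S100A7, S100A8 and S100A9. Of the 24 genes present, 20 were tested, and 4 were called higher and 5 lower with CAF exosomes, 45.0% of the list beside 18.2% of all genes, at a median log2 fold change of -0.16 beside -0.01 over all genes. With hOMF exosomes 1 was called higher and 6 lower, 35.0% of the list beside 23.2% of all genes, at a median of -0.31 beside 0.00. Without control replicate 3 the counts were 2 higher and 5 lower with CAF exosomes, and 0 higher and 6 lower with hOMF exosomes. That fit called 11.5% of all genes with CAF exosomes and 16% with hOMF exosomes. The neutrophil chemokine gene CXCL1 was at 457, 519.7 and 459 CPM with CAF exosomes, at 435, 410.2 and 350.1 CPM with hOMF exosomes and at 707, 859 and 747 CPM in controls. It fell by 0.69 on the log2 scale with CAF exosomes (SE 0.09, edgeR adjusted p = 0.000202) and by 0.95 with hOMF exosomes (SE 0.09, edgeR adjusted p = 1.24e-05). CXCL8, another neutrophil chemokine, fell by 0.46 with CAF exosomes (edgeR adjusted p = 0.000546) and by 0.70 with hOMF exosomes (edgeR adjusted p = 1.46e-05).

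The cytokine gene IL1B fell by 0.42 on the log2 scale with CAF exosomes (edgeR adjusted p = 0.00332) and by 0.41 with hOMF exosomes (edgeR adjusted p = 0.00285). NFKBIZ, which encodes the inflammatory transcriptional regulator IkB-zeta, fell by 0.47 with CAF exosomes (edgeR adjusted p = 0.00405) and by 0.64 with hOMF exosomes (edgeR adjusted p = 0.000305). In the other direction, the serpin gene SERPINB13 rose by 0.90 with CAF exosomes (SE 0.17, edgeR adjusted p = 0.00261) and by 0.66 with hOMF exosomes (SE 0.18, edgeR adjusted p = 0.0136), and the hOMF call was lost without control replicate 3 (0.49, edgeR adjusted p = 0.0648). Of the wound-associated keratins, KRT6A (0.56), KRT16 (0.65) and KRT17 (0.41) were called higher with CAF exosomes, and their hOMF values of 0.16, 0.54 and 0.22 were not called. The CAF calls of KRT16 (0.60, edgeR adjusted p = 0.0777) and KRT17 (0.28, edgeR adjusted p = 0.103) were lost without control replicate 3, while that of KRT6A held (0.59, edgeR adjusted p = 0.0458). KRT6B was called in neither comparison, at 0.01 with CAF exosomes (edgeR adjusted p = 0.967) and -0.32 with hOMF exosomes (edgeR adjusted p = 0.104). The 4 keratins and CACYBP were named after their values were seen, as was SERPINB4, a serpin gene of squamous cells, which fell by 0.53 with CAF exosomes (edgeR adjusted p = 0.0304) and by 0.66 with hOMF exosomes (edgeR adjusted p = 0.00837). Between CAF and hOMF exosomes 0 of the 20 were called, and the nearest was the chemokine gene CCL20 at 0.53 (edgeR adjusted p = 0.0593). CCL20 was called in the fit without control replicate 3, a library of neither group (0.53, edgeR adjusted p = 0.0369). Against control, CCL20 was called lower with hOMF exosomes (-0.41, edgeR adjusted p = 0.00365) and not called with CAF exosomes (0.12, edgeR adjusted p = 0.336).

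Cornified envelope genes that share the chromosomal region with the S100 cluster were mostly below the filter too. Of 19 listed, 9 were in the table and 1, SPRR1A, was tested. SPRR1A, a small proline-rich crosslinked protein gene, fell by 1.24 on the log2 scale with hOMF exosomes (SE 0.35, edgeR adjusted p = 0.019) and was at -0.32 with CAF exosomes (SE 0.32, edgeR adjusted p = 0.508). These values rest on few reads, 5 to 8 counts in the hOMF libraries and 11 to 18 in the controls. The hOMF call was lost without control replicate 3 (-1.18, edgeR adjusted p = 0.0645).

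Outside the S100 family, the genes whose log2 CPM followed S100A7 most closely over the 9 libraries were RPTOR (Pearson r = 0.992), TOB2 (r = 0.986) and USP36 (r = 0.984). For S100A9 they were RNF223 (r = 0.99), SLCO4A1 (r = 0.982) and DUSP7 (r = 0.978), and for S100A8 they were CREBBP (r = 0.989), RNF223 (r = 0.986) and EPS15L1 (r = 0.975). These r values describe 9 libraries that differ mostly by exosome against control. Genes picked by them are bound to fall where the S100 gene falls. The changes given below for RNF223 and EPS15L1 therefore add no separate evidence. Within the set, r was 0.959 for S100A7 with S100A9 and 0.959 for S100A8 with S100A9, and it was -0.957 for S100A7 with S100A14. RNF223, which was among the closest for both calprotectin genes, fell by 1.15 on the log2 scale with CAF exosomes (SE 0.20, edgeR adjusted p = 0.00146) and by 1.25 with hOMF exosomes (SE 0.20, edgeR adjusted p = 0.000548). The hOMF call of EPS15L1 (-0.22, edgeR adjusted p = 0.0342) was lost without control replicate 3 (-0.22, edgeR adjusted p = 0.0758).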

How the data were processed

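Poly(A) RNA from 9 Cal-27 libraries in 3 labelled groups of 3 was analysed from 1 table of 16366 genes. Per the file headers, the authors' table holds expected counts, FPKM (fragments scaled by transcript length and library size) and TPM for each library, and 0 columns of per-sample values were left without a sample. Per the submitters' processing notes Bowtie2 2.2.5 and RSEM 1.2.8 were used, and the expected counts deposited by the authors are therefore estimates in which similar genes can divide reads. The notes name a mouse build while the identifiers are human, which leaves the build uncertain. No annotation or strand setting is given in the sources used here. The FPKM values deposited by the authors served only in alternatives. The TPM values deposited by the authors were used for levels between genes and for ratios.

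Expected counts summed to 11185672 to 12779101 per library, 90.5% to 92.0% of values were whole to within 0.001, and all were rounded to whole numbers. Genes were kept by filterByExpr (minimum count 10, minimum total 15), leaving 12470, and scaled by TMM. The quasi-likelihood test of edgeR (two-sided, with glmQLFit and glmQLFTest) used all 9 libraries with the group as its only term and 6 residual degrees of freedom, and p-values were adjusted by Benjamini-Hochberg over all genes at a threshold of 0.05. SE came from the fold change and the F statistic, and intervals cover 95%. Ratios were tested by exact permutation. The script was tested on simulated data. Replicate numbers recur in the groups, but deviations of same-numbered libraries correlated at -0.154 to 0.14, so the numbers were not taken to pair samples. Replicates of a group differed beyond sampling noise (3.14 to 11.4, chi-square over degrees of freedom).

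Alternatives were other scalings and filters, DESeq2, limma on counts and on log2(FPKM + 1) or log2(FPKM + 0.1), length and GC offsets, a replicate block, and each library left out. The GC offsets, and the fit without control replicate 3 for genes outside the 10, were chosen after seeing the data. The 10 genes and all lists were chosen with earlier results of these data known. Genes outside the 10 were named as the up to 4 tested genes of each list with the smallest p per comparison, ANXA2, and the 3 genes outside the family with the highest Pearson r to each of the 3 S100 genes with the smallest p. Genes of the marker lists, CACYBP, SERPINB4, KRT6A, KRT6B, KRT16 and KRT17 fall outside that rule and were named after their values were seen. Gene coordinates came from GENCODE 29 and start sites from RefSeq (GRCh38.p14), which matched 10 of 10 genes. The tools were edgeR 4.0.16, DESeq2 1.42.0 and limma 3.58.1 in R 4.3.3, and scipy 1.17.1 and matplotlib 3.10.9 in python 3.11.15.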

Additional observations from a re-analysis of the deposited data

How the results depend on the processing

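S100A7, S100A8, S100A9 and S100A14 kept their direction and call against control, with either exosome, under all 23 alternatives. Over 30 results for the 10 genes and 689 values, 644 kept direction and side of the threshold, 20 lost and 8 gained a call, and 17 changed sign, the last only for estimates of S100A6, S100A10 and S100A8 that were not called. DESeq2 gave no adjusted p for S100A4 between the exosome groups. For S100A4 the CAF call was lost under 9 alternatives, among them library totals (adjusted p = 0.0537) and DESeq2 (adjusted p = 0.0679). For S100A2 it was lost under 6, among them limma on log2(FPKM + 1) (adjusted p = 0.0578), and for S100A11 the hOMF call was lost there too (adjusted p = 0.0617). S100A16 with CAF exosomes passed with a length offset (adjusted p = 0.0263, or 0.0363 with the block), with a GC and length offset (0.0181, or 0.0218 with the block) and without CAF replicate 2 (0.034), and was at -0.124 without CAF replicate 1.

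Sign changes against control were those of S100A6 with CAF exosomes, at 0.0086 with a length offset and 0.0135 with a length offset and replicate block, and from -0.0899 to 0.0187 with 1 library left out. S100A6 with hOMF exosomes ran from -0.201 to 0.0122 with 1 library left out. Between CAF and hOMF exosomes, S100A6 was at -0.00075 on either FPKM scale and from -0.055 to 0.153 with 1 library left out. S100A10 was at 0.0038 with no filter, 0.0025 with a length offset and 0.00048 with that and the block, and from -0.0575 to 0.0464 with 1 library left out. S100A8 ran from -0.151 to 0.0203 with 1 library left out.

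Over all genes, leaving out 1 library gave 1343 to 2389 calls for CAF exosomes against control (1343 without CAF replicate 3, 1389 without control replicate 2, 1442 without control replicate 3) and 1695 to 3096 for hOMF exosomes against control (1695 without hOMF replicate 2). The 2 calls between CAF and hOMF exosomes became 0 to 8 with 1 library left out, 0 with library totals, limma-voom, either FPKM scale, a mean CPM of at least 1 or only these groups, 36 with DESeq2, 5 with a length offset (8 with the block) and 17 with a GC and length offset (19 with the block). Called genes that were higher made up 52.4% with CAF exosomes and 63.1% with library totals, and 50.9% with hOMF exosomes and 67.0% with library totals. The replicate block gave 2101, 2718 and 2 called genes in the 3 comparisons, and 6, 8 and 0 of the S100 genes, as without it. At 139 to 256 counts, S100A4 is the gene of the set most limited by depth.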
